A study of Mus musculus with 12 samples.

Results

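Cells that received the plasmid BMP2ADV590, built to express BMP2 together with the microRNA miR-590, were compared with cells that received BMP2ADV, built to express BMP2 alone. The 6 libraries were chosen by title, 3 labelled pH_BMP2ADV590 and 3 labelled pH_BMP2ADV, out of 12 libraries in 4 groups, and all genes of the files were used. The other 6 libraries, from the hybrid plasmids pH_BMP2ADV20a (3) and pH_BMP2ADV148b (3), entered the shared fit and served to show where BMP2ADV590 differed from another BMP2 and microRNA plasmid. The cells were C3H/10T1/2, an established line of fibroblast-like mouse embryo cells with the potential to form cartilage, bone or fat, which the labels also mark as sarcoma. Every group was transfected without a virus, and so transiently, with a polymer reagent (TurboFect), and total RNA was taken after 3 days. All 4 groups therefore carry a BMP2 plasmid, and an untransfected, mock or miR-590-only group was not analysed here, so what follows is the difference between plasmids and not an effect of BMP2 itself. The promoters on the plasmids, the arm of miR-590 and the share of cells that took up DNA are not stated in the sources used here. Separate cultures behind the 3 libraries of each group are not stated either, so p-values measure only the spread between these libraries, which may be technical.

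BMP2 is a secreted growth factor that binds type I and type II serine/threonine kinase receptors, which phosphorylate the transcription factors SMAD1, SMAD5 and SMAD8, and these switch on target genes such as Id1, Smad6 and Nog. In mesenchymal cells this signal can start chondrogenesis, the programme in which SOX9 with SOX5 and SOX6 turns on collagen II, aggrecan and the other proteins of cartilage matrix, followed by hypertrophy marked by collagen X. MicroRNAs are short RNAs that pair through their seed, bases 2 to 8, with sites in the 3' untranslated regions of messenger RNAs and lower their stability or translation. miR-590-5p is known to share its seed with miR-21.

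A miR-590 sequence was not used here, so the seed is shown on the mouse microRNA that carries it and on its sites in 3' untranslated regions. The first line is the mature microRNA from RefSeq (GRCm38.p6), with bases 2 to 8 in capitals. Of 1738 mature mouse microRNAs in that set, 2 have this seed, mmu-miR-21a-5p and mmu-miR-21c. The set holds no entry for miR-590. The other lines are sites in genes of the candidate target list, read from GRCm38 with the 7 bases complementary to the seed in capitals. Pdcd4, Timp3 and Sox5 are the members of that list that were higher in BMP2ADV590, and Spry2 is a known miR-21 target that was not called.
mmu-miR-21a-5p: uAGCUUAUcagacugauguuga (chr11:86584120-86584141, minus strand)
Pdcd4: gggtgttctgATAAGCTactttctaag (chr19:53929422-53929448, plus strand)
Timp3: tgagctttcaATAAGCTatagctttgt (chr10:86348217-86348243, plus strand)
Sox5: agagatcgaaATAAGCTatgggttaaa (chr6:143833006-143833032, minus strand)
Spry2: cccacattgcATAAGCTaaagcagcca (chr14:105892489-105892515, minus strand)

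The 6 libraries held 9773102 to 14002702 gene counts each and 17086 to 18055 genes above 0, which covered 22239 genes in all. Gm42418, a gene model over ribosomal RNA sequence, took 5.78%, 6.28% and 10.0% of the counts of BMP2ADV replicates 1, 2 and 3 and 4.99%, 8.99% and 7.06% of those of BMP2ADV590. BMP2ADV590 replicate 2 lay apart from its group on the second principal component of the 12 libraries (11.7% of the variance), at -23.4 against 22.6 and 9.63. BMP2ADV replicate 3 lay at -9.53 there, against 8.45 and 12.4 in the rest of its group. All replicate pairs differed by more than counting noise (chi-square per gene 6.38 to 29.4). Some listed markers of other cell types had 0 counts in all 6 libraries. These included Myod1, Myf5 and Ckm (muscle), Adgre1 and Tyrobp (macrophages), and Cdh5 and Cldn5 (endothelium). Krt8, Krt18 and Cldn4 (simple epithelium) and Sox10 (neural crest and glia) were also at 0. Reads that align to more than 1 place carry no gene here, so a 0 need not mean absence. Other members of these lists were detected, with 2 muscle, 4 macrophage, 1 endothelium, 5 epithelium and 6 neural markers tested. The endothelium marker was not called (-0.68), at 6.59 to 10.0 CPM in BMP2ADV and 4.02 to 5.64 CPM in BMP2ADV590. Of 6 tested neural markers Nes (0.54) and Stmn2 (0.38) were higher and Map2 (-0.54) lower, the first pair with calls lost in 8 and 9 of the 12 fits that left out a library, and the summed markers ranged from 173 to 192 CPM in BMP2ADV and from 171 to 205 CPM in BMP2ADV590. The muscle marker Acta1 was lower (-0.53), a call lost in 9 of those fits, with summed muscle markers of 33.6 to 42.5 CPM and 32.8 to 37.0 CPM. Summed fibroblast and mesenchyme markers ranged from 19396 to 20750 CPM (normalised counts-per-million) in BMP2ADV and from 19841 to 22102 CPM in BMP2ADV590.

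Of 13229 genes tested, 1093 were called at a Benjamini-Hochberg adjusted p under 0.05 by edgeR's quasi-likelihood test, which is 8.26%. The 578 genes higher in BMP2ADV590 make up 4.37% of those tested and the 515 lower genes 3.89%. These shares are the background for every list below, and a value given alone after a gene is its log2 fold change. The libraries of the 2 groups did not overlap for 25.1% of all tested genes, 12.5% in each direction. Of the 1093 called genes, 1066 had no overlap, so a lack of overlap adds little to a call. Most changes were modest, with 91 genes at least 2-fold higher and 67 at least 2-fold lower, and the median log2 fold change over all tested genes was 0.00. The count was 678 without BMP2ADV replicate 2, 565 without BMP2ADV replicate 3 and 935 without BMP2ADV590 replicate 2. Against the other hybrids, 171 genes were higher (1.29%) and 116 lower (0.877%) than in BMP2ADV20a (2.17% in all), and 324 higher (2.45%) and 261 lower (1.97%) than in BMP2ADV148b (4.42% in all). The count against BMP2ADV20a fell from 287 to 64 without BMP2ADV20a replicate 1, 85 without its replicate 2, and 150 and 147 without BMP2ADV590 replicate 1 and 3, and was 489 without BMP2ADV590 replicate 2. Against BMP2ADV148b it fell from 585 to 241 and 353 without BMP2ADV148b replicates 1 and 2, and to 383 without BMP2ADV590 replicate 3. All comparisons share the BMP2ADV590 libraries or the BMP2ADV libraries, so they are not independent of each other.

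**Figure D1:**
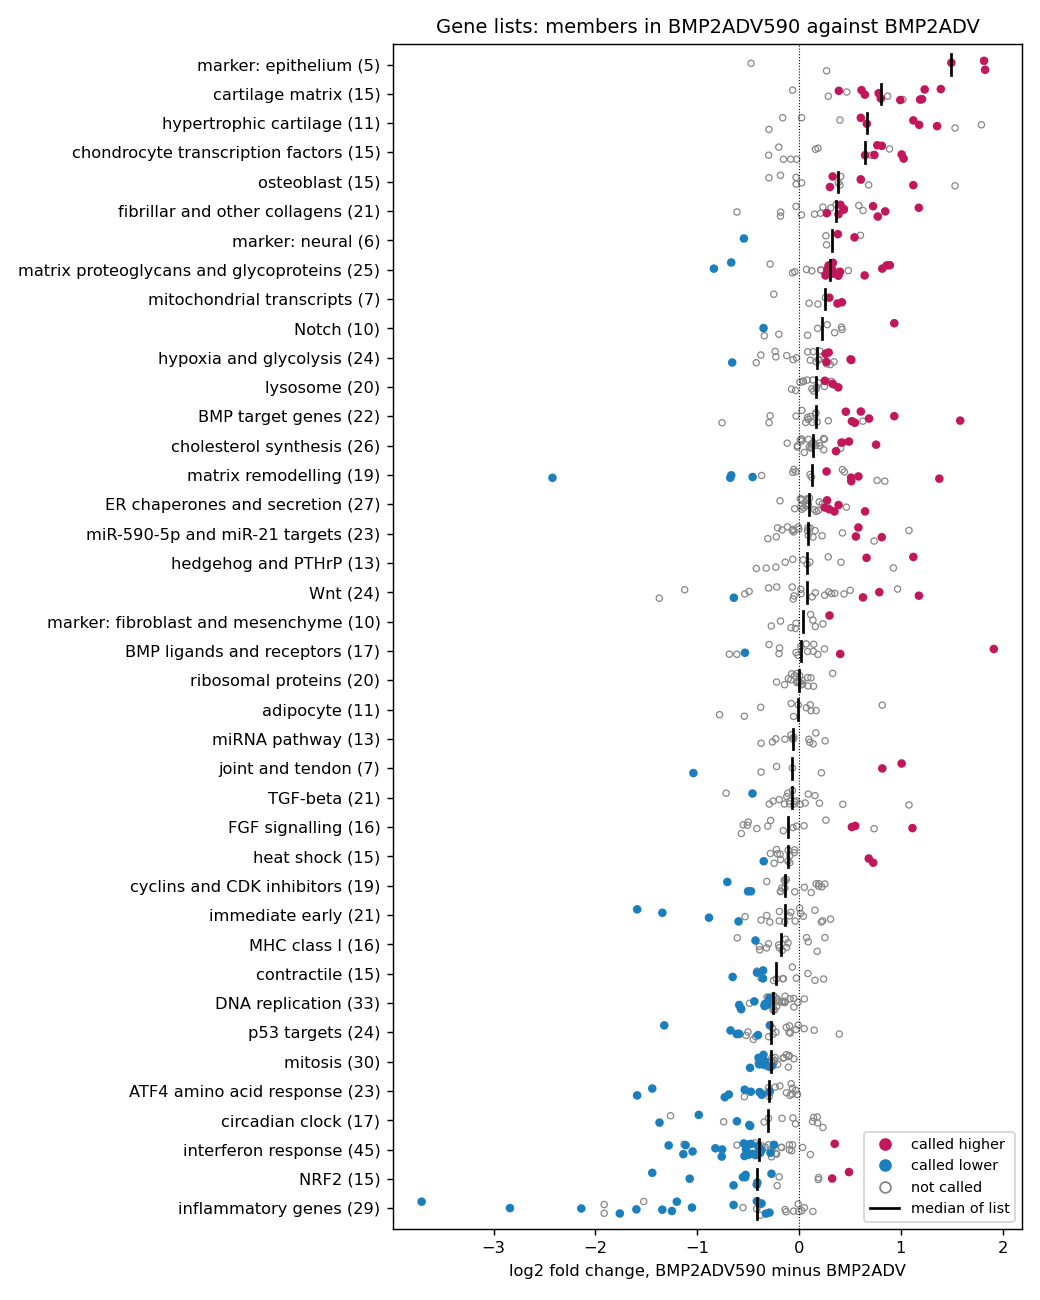
Log2 fold change of the tested members of gene lists in BMP2ADV590 against BMP2ADV (x axis), with 1 point per gene, 1 row per list (y axis), filled points for genes called at an adjusted p under 0.05 and a bar at the median of the list. The medians of the cartilage lists lie to the right of 0, at 0.80 for cartilage matrix and 0.67 for hypertrophic cartilage, and those of the inflammatory, interferon and stress lists to the left, at -0.42 for inflammatory genes.

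Structural genes of cartilage matrix were higher with the miR-590 plasmid. Of 22 listed genes, 15 were abundant enough to be tested and 10 of these rose (66.7%, against 4.37% of all tested genes called higher), none fell, and the median log2 fold change was 0.80. In bulk RNA such as this, more cells of a type and more RNA per cell cannot be told apart. Acan (ENSMUSG00000030607, chromosome 7, 79053483 to 79115099), the large aggregating proteoglycan that gives cartilage its resistance to compression, measured 42.9, 29 and 25.1 CPM in the BMP2ADV libraries and 99.2, 91.9 and 64.8 CPM in the BMP2ADV590 libraries. The groups did not overlap, although BMP2ADV590 replicate 3 was nearer to the reference than the other 2 (log2 fold change 1.39, SE 0.245, adjusted p = 0.000652). Papss2, which makes the sulphate donor for cartilage proteoglycans, measured 270.3, 239 and 203 CPM in the BMP2ADV libraries and 509, 612 and 504 CPM in the BMP2ADV590 libraries (log2 fold change 1.19, SE 0.111, adjusted p = 8.61e-07). Hapln1, the link protein that fixes aggrecan to hyaluronan, was at 228, 209 and 212 CPM where the reference had 112, 95.9 and 67.3 CPM (log2 fold change 1.23, SE 0.142, adjusted p = 7.95e-06). All 3 genes were about doubled or more, with every BMP2ADV590 library above every reference library.

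Chst11, a chondroitin sulphotransferase, also rose (log2 fold change 0.78, adjusted p = 7.34e-05). Among the minor cartilage collagens, which coat and size the collagen II fibril, Col9a1 rose by 0.99 (SE 0.205) and Col11a1 by 0.39 (SE 0.0855). Col9a2 (1.21), Col11a2 (0.80) and Cytl1 (0.65), a secreted protein of cartilage, also passed the test. The calls of Col11a2 and Cytl1 were lost without BMP2ADV replicate 2 or 3 (adjusted p up to 0.0911 and 0.0754) and that of Col9a2 without BMP2ADV replicate 3 or BMP2ADV590 replicate 2 (up to 0.174). Col2a1, the main collagen of cartilage, rose by 0.61 (SE 0.0832). Epyc, a small proteoglycan of growth cartilage, measured 4.43, 3.61 and 3.87 CPM in the BMP2ADV libraries and 7.61, 7.88 and 8.80 CPM in the BMP2ADV590 libraries and did not pass (log2 fold change 1.02, adjusted p = 0.129). Leaving out single libraries moved the number that rose between 7 and 11. The 7 members that were too scarce to test included Comp, Prg4 and Matn3, and Matn1, Snorc and Chad had 0 counts in all 6 libraries.

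Genes of the hypertrophic stage followed the same direction in part. Of 17 listed genes 11 were tested, of which 5 rose and none fell (median 0.67). Besides Col10a1 (log2 fold change 1.36, SE 0.155, adjusted p = 7.31e-06), Panx3, a channel protein of prehypertrophic chondrocytes and osteoblasts, measured 15, 14.7 and 10.8 CPM in the BMP2ADV libraries and 29.8, 30.0 and 32.4 CPM in the BMP2ADV590 libraries (log2 fold change 1.18, SE 0.191, adjusted p = 0.000274). The 3 BMP2ADV590 libraries lay close together at about the doubled level. Pth1r, the receptor for parathyroid hormone and PTHrP that marks prehypertrophic cells, went from 24.8, 24.2 and 14 CPM to 45.5, 50.9 and 41.6 CPM (log2 fold change 1.12, SE 0.198, adjusted p = 0.000652). Mef2c, a transcription factor of hypertrophy, rose by 0.67 (SE 0.0828) and the homeobox gene Dlx5 by 0.61 (SE 0.118). Runx2, which drives both hypertrophy and bone formation, had a log2 fold change of 0.02 (95% interval -0.19 to 0.24, adjusted p = 0.932). Ihh, Mmp13 and Alpl, which mark the mature hypertrophic and mineralising cell, were too scarce to test.

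Some transcription factors of the chondrocyte programme rose too, 6 of 15 tested of 19 listed, with none lower and a median of 0.65. Sox6, the partner of SOX9 in the activation of cartilage enhancers, measured 25.1, 17.5 and 19 CPM in the BMP2ADV libraries and 41.6, 45.4 and 39.2 CPM in the BMP2ADV590 libraries (log2 fold change 1.03, SE 0.153, adjusted p = 0.000119). Erg, an ETS factor of articular cartilage, was at 29.9, 33.6 and 34.4 CPM against 19.1, 15.5 and 13.8 CPM (log2 fold change 1.01, SE 0.178, adjusted p = 0.000656). For both genes the groups were free of overlap. Sox9 itself rose (log2 fold change 0.77, SE 0.100, adjusted p = 2.86e-05). Wwp2, the ubiquitin ligase gene that hosts the cartilage microRNA miR-140, rose by 0.74 (SE 0.0945) and Creb3l2, a factor for the secretory pathway of chondrocytes, by 0.65 (SE 0.102). Sox5 passed at adjusted p = 0.0297 (0.81, SE 0.232), but missed the threshold without BMP2ADV replicate 2 or 3 or BMP2ADV590 replicate 2 or 3, with adjusted p up to 0.149. Sox5 also carries a seed site printed above.

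**Figure D2:**
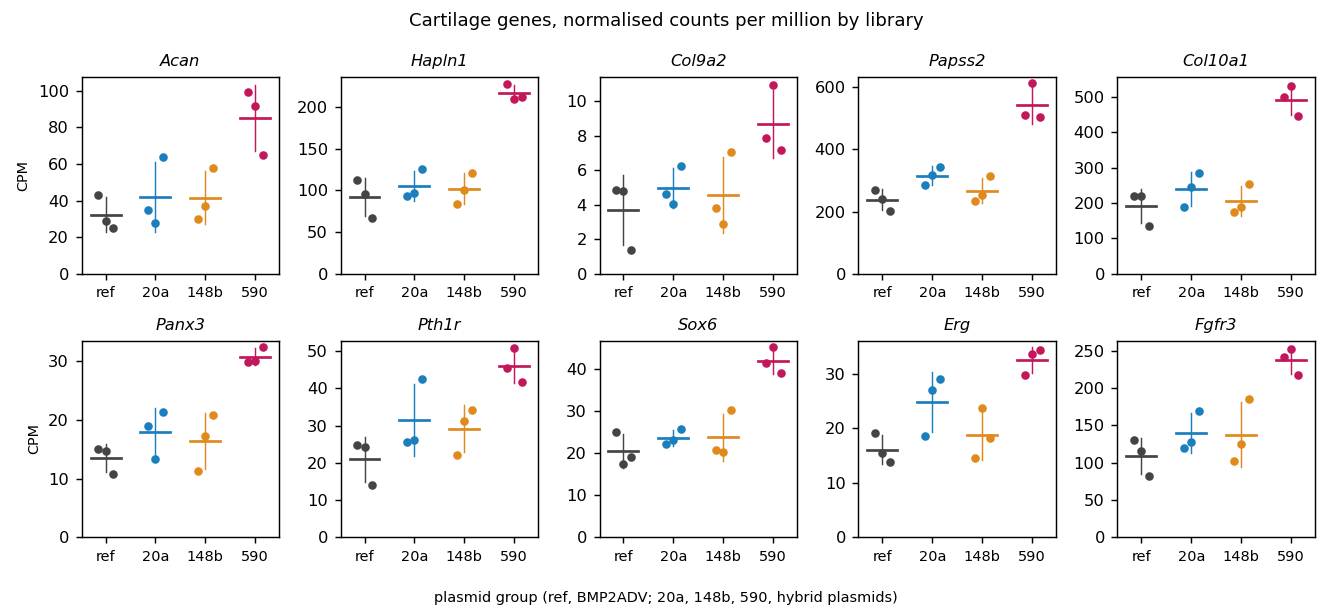
Normalised counts-per-million (y axis, linear from 0) of 10 cartilage genes in the 12 libraries by plasmid group (x axis), with 1 point per library, horizontal bars at the mean and vertical lines of 1 SD over 3 libraries. In Acan the BMP2ADV590 libraries span 64.8 to 99.2 CPM and the BMP2ADV libraries 25.1 to 42.9 CPM, and for Papss2 the lowest BMP2ADV590 library, at 504 CPM, lies above all other libraries.

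Some cartilage genes were also higher than with the other hybrid plasmids, when the difference itself was tested. Of the 15 tested cartilage matrix genes, 7 were higher in BMP2ADV590 than in BMP2ADV20a and 8 were higher than in BMP2ADV148b, with none lower in either comparison. The first number was 3 without BMP2ADV20a replicate 2 and the second 6 without BMP2ADV148b replicate 1. Acan, for which BMP2ADV20a had 34.6, 27.6 and 63.6 CPM and BMP2ADV148b 29.9, 36.9 and 58 CPM, exceeded them by 1.04 (adjusted p = 0.0216) and 1.04 (adjusted p = 0.0117) on the log2 scale. These calls of Acan were lost without BMP2ADV20a replicate 1 or 2 or BMP2ADV590 replicate 1 for the first (adjusted p up to 0.167) and BMP2ADV148b replicate 1 or 2 for the second (up to 0.132). Papss2 exceeded them by 0.78 (adjusted p = 0.000719) and 1.02 (adjusted p = 4.03e-06). Of the chondrocyte transcription factors, 4 and 5 of 15 were higher than in BMP2ADV20a and BMP2ADV148b, and of the hypertrophic genes 4 and 3 of 11. Against BMP2ADV20a these became 2 factors and 1 hypertrophic gene without BMP2ADV20a replicate 1, and against BMP2ADV148b 4 and 2 without BMP2ADV148b replicate 1. Sox6 differed by 0.83 and 0.82 (adjusted p = 0.00426 and 0.00169), and the calls of Papss2 and Sox6 held in each fit with a library left out.

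Genes of the osteoblast, the bone-forming cell, gave fewer calls. Of 23 listed genes 15 were tested and 4 rose, with a median of 0.38, and 2 of these, Dlx5 and Pth1r, are shared with the hypertrophic list. The other 2 were Sparc, a collagen-binding matrix protein (0.33, SE 0.0783), and Postn, periostin (0.30, SE 0.0862), of which Sparc missed the threshold without BMP2ADV replicate 2 (adjusted p = 0.0731) and Postn without BMP2ADV replicate 1 or 3 or BMP2ADV590 replicate 1 or 3 (up to 0.14). Against BMP2ADV20a 1 osteoblast gene was higher (0 without BMP2ADV20a replicate 1) and against BMP2ADV148b none was called. Osteocalcin (Bglap), Dmp1, Mepe and Ifitm5, markers of mature osteoblasts and osteocytes, were too scarce to test. Of 11 tested adipocyte genes none was called (median -0.01), although 1 was higher without BMP2ADV590 replicate 2 or BMP2ADV20a replicate 3 and 1 lower without BMP2ADV590 replicate 1. Scx, the transcription factor of tendon progenitors, was lower (log2 fold change -1.04, SE 0.247, adjusted p = 0.0091), which missed the threshold without BMP2ADV replicate 3 or BMP2ADV590 replicate 1 (up to 0.0612), while Fmod, fibromodulin of tendon and cartilage, rose by 0.82 (SE 0.137).

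Reads of Bmp2 itself were scarce in every group. Bmp2 (ENSMUSG00000027358, chromosome 2, 133552159 to 133562885) measured 1.77, 1.39 and 0.732 CPM in the BMP2ADV libraries and 4.51, 5.82 and 4.80 CPM in the BMP2ADV590 libraries (log2 fold change 1.91, SE 0.381, adjusted p = 0.0021), so each BMP2ADV590 library exceeded each reference library. The 95% interval of the log2 fold change was 1.13 to 2.70. Since the sources used here do not state the species or the 3' end of the BMP2 insert, its reads cannot be divided between plasmid and cellular gene. The other hybrids held 4.19, 2.99 and 2.99 CPM (BMP2ADV20a) and 3.37, 8.26 and 4.41 CPM (BMP2ADV148b), and BMP2ADV590 passed the test against neither (log2 differences 0.56 and -0.09, adjusted p = 0.48 and 0.937). Bmp2 was higher with the miR-590 plasmid than with the reference together with the cartilage and BMP genes below, and its part in those results was not tested. Eif4h, the gene whose intron holds miR-590, had a log2 fold change of -0.06 (95% interval -0.21 to 0.09, adjusted p = 0.724).

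Among genes that BMP signalling is known to switch on, 7 of 22 tested rose and none fell (31.8%, median 0.16). Hey1, a helix-loop-helix repressor that responds to BMP and to Notch, measured 88.6, 91.5 and 74.2 CPM in the BMP2ADV libraries and 169, 157 and 160.5 CPM in the BMP2ADV590 libraries (log2 fold change 0.93, SE 0.0959, adjusted p = 1.66e-06). The lowest BMP2ADV590 library was well above the highest reference library. Grem1, gremlin 1, a secreted antagonist that binds BMP2 and BMP4, went from 43.9, 33.9 and 37.9 CPM to 52.4, 56.7 and 57 CPM (log2 fold change 0.52, SE 0.107, adjusted p = 0.00288). Nog, noggin, the other secreted antagonist called, was scarce, at 1.48, 1.20 and 1.57 CPM against 4.02, 3.40 and 5.40 CPM (log2 fold change 1.58, SE 0.482, adjusted p = 0.0422), and missed the threshold without BMP2ADV replicate 1, 2 or 3 or BMP2ADV590 replicate 1 or 3 (up to 0.155). The decoy receptor gene Bambi (0.69) and Dlx5 (0.61) rose as well, while Msx1 (0.55) and the inhibitory Smad6 (0.46) missed the threshold without BMP2ADV replicate 3 or BMP2ADV590 replicate 1 or 3 (adjusted p up to 0.135) and without BMP2ADV590 replicate 1 (0.064), respectively. Id1, Id2 and Id3, immediate targets of SMAD1 and SMAD5, were not called. Id1 had a log2 fold change of 0.06 (95% interval -0.10 to 0.23), Id2 0.03 and Id3 0.17 (adjusted p = 0.718, 0.904 and 0.208). Without BMP2ADV590 replicate 1, 4 members of the list were higher and 1 was lower, and without replicate 2 of that group 8 were higher.

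Of 17 tested ligand and receptor genes 3 were called. Besides Bmp2, the type II receptor gene Bmpr2 rose (log2 fold change 0.40, SE 0.0845, adjusted p = 0.00335) and Bmp4, a ligand closely related to BMP2, fell. Bmp4 measured 205, 173 and 197 CPM in the BMP2ADV libraries and 163, 121 and 114 CPM in the BMP2ADV590 libraries (log2 fold change -0.53, SE 0.104, adjusted p = 0.0018), without overlap between the groups. Signalling genes that work with BMP in the growth plate also included called members. Fgfr3, the FGF receptor that restrains chondrocyte division, measured 129.9, 115 and 82.6 CPM in the BMP2ADV libraries and 242, 252 and 217 CPM in the BMP2ADV590 libraries (log2 fold change 1.11, SE 0.165, adjusted p = 0.000114). The related Fgfr2 (0.52) missed the threshold without BMP2ADV replicate 1, 2 or 3 or BMP2ADV590 replicate 1 (up to 0.0922), and the decoy-like Fgfrl1 rose by 0.55 (SE 0.0955), so 3 of 16 tested FGF genes were higher. In the Wnt list of 24 tested, Frzb, a secreted Wnt antagonist of cartilage, rose by 1.18 (SE 0.205), the receptor gene Fzd9 by 0.79 and Sfrp2 by 0.63, and Ccn4, a Wnt-induced matrix protein, fell (-0.64). The call of Sfrp2 was lost without BMP2ADV replicate 2 or 3 or BMP2ADV590 replicate 3 (up to 0.0889). Boc, a hedgehog co-receptor, rose (0.66, SE 0.0935), Smad3, which carries the TGF-beta signal, fell (-0.47, SE 0.109) as the only call of 21 tested TGF-beta genes, and the Notch target Hes1 fell (-0.35, adjusted p = 0.00921, and 0.0709 without BMP2ADV replicate 3).

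**Figure D3:**
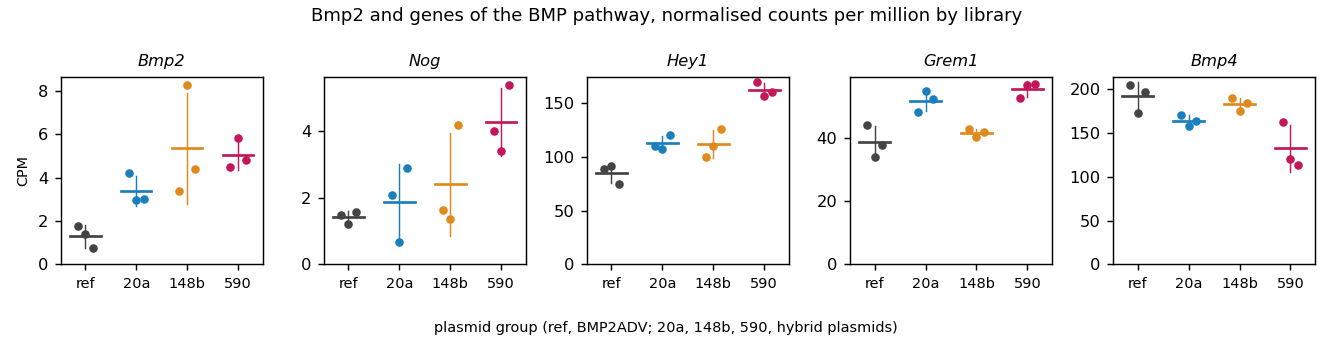
Normalised counts-per-million (y axis, linear from 0) of Bmp2 and 4 genes of the BMP pathway in the 12 libraries by plasmid group (x axis), with 1 point per library, bars at the mean and lines of 1 SD over 3 libraries. Bmp2 lies between 0.732 and 1.77 CPM in BMP2ADV and between 4.51 and 5.82 CPM in BMP2ADV590, and for Bmp4 the BMP2ADV590 libraries are the lowest or among the lowest.

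Some matrix genes outside the cartilage matrix list rose as well. Of 21 tested collagen genes outside that list 9 were higher and none lower (median 0.36), and 11 were higher and 1 lower without BMP2ADV590 replicate 2. Col27a1, a fibrillar collagen of cartilage and growing bone, went from 381, 310.5 and 269.8 CPM to 767, 769 and 637 CPM (log2 fold change 1.18, SE 0.161, adjusted p = 4.71e-05). Col6a1 and Col6a2, chains of the pericellular collagen VI, rose by 0.77 and 0.85 (SE 0.116 and 0.105), Col15a1 of basement membranes by 0.73, and Col8a1 and Col8a2 by 0.44 and 0.44. Of 25 matrix proteoglycan and glycoprotein genes 14 rose and 2 fell (median 0.30), but the number that rose dropped to 6 without BMP2ADV replicate 2 and to 8 without replicate 3. Fbn2, a fibrillin of elastic microfibrils, rose by 0.86 (SE 0.139), and the hyaluronan synthase gene Has2 and the matricellular Thbs1 were the 2 that fell (-0.67 and -0.84), and Has2 missed the threshold without BMP2ADV replicate 1, 2 or 3 or BMP2ADV590 replicate 2 (up to 0.136). Against BMP2ADV20a 3 of the 21 collagens and 3 of the 25 glycoproteins were higher, which became 1 collagen without BMP2ADV20a replicate 2 and 0 glycoproteins without BMP2ADV20a replicate 1, and against BMP2ADV148b 7 and 9 were, which became 4 and 1 without BMP2ADV148b replicate 1.

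Genes of matrix remodelling, mostly proteases and their inhibitors, went in both directions, with 5 of 19 tested higher and 4 lower. The number lower was 2 without BMP2ADV replicate 2 or 3, BMP2ADV590 replicate 1 or BMP2ADV20a replicate 2. Mmp11, stromelysin 3, measured 45.4, 44.1 and 39.5 CPM in the BMP2ADV libraries and 126, 117 and 92.8 CPM in the BMP2ADV590 libraries (log2 fold change 1.38, SE 0.135, adjusted p = 1.1e-06), and the gelatinase gene Mmp2 rose by 0.51 (SE 0.0908). Adamts5, the aggrecan-cleaving enzyme, fell by 0.68 (SE 0.124) and Adamts1 by 0.46 (SE 0.0833). Timp3, an inhibitor of these enzymes and a member of the miR-21 target list, rose by 0.58 (SE 0.0713). Contractile genes gave 4 lower and none higher of 15 tested (median -0.22), and 2 lower without BMP2ADV replicate 2 or 3 or BMP2ADV590 replicate 1. Among them Cnn2, a calponin, kept its call whichever library was left out (-0.41, SE 0.0794).

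Inflammatory genes were among those that fell. Of 29 tested, 14 were lower (48.3%, against 3.89% of all tested genes called lower) and none higher, with a median of -0.42, and leaving out single libraries gave 11 to 14. The chemokine gene Ccl2 (ENSMUSG00000035385, chromosome 11, 82035571 to 82037453), which draws monocytes, measured 28.4, 25.5 and 26.2 CPM in the BMP2ADV libraries and 4.58, 2.51 and 4.00 CPM in the BMP2ADV590 libraries. The BMP2ADV590 libraries lay far below every reference library (log2 fold change -2.84, SE 0.229, adjusted p = 1.18e-07). Its neighbour Ccl7 fell by 1.76, Ccl5 by 1.20 and the neutrophil chemokine gene Cxcl1 by 1.25 (SE 0.221, 0.167 and 0.198). Csf1, macrophage colony-stimulating factor, was at 78, 49.8 and 71.4 CPM against 130.5, 147 and 137 CPM (log2 fold change -1.05, SE 0.120, adjusted p = 7.01e-06), with BMP2ADV590 replicate 2 the lowest. Tnfaip3, the ubiquitin-editing brake on NF-kB signalling, fell by 2.14 (SE 0.308) and Relb, an NF-kB subunit, by 1.34 (SE 0.204). The subunit gene Rela (-0.33) and the inhibitor gene Nfkbia (-0.29) changed less, and missed the threshold without BMP2ADV replicate 2 or BMP2ADV590 replicate 1 or 3 (up to 0.184) and without BMP2ADV590 replicate 3 (0.0673). Vcam1, an adhesion molecule for leukocytes, fell by 0.64 (SE 0.103).

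The level of Ccl2 was low in BMP2ADV20a as well. For this gene, the BMP2ADV20a libraries held 6.36, 6.50 and 5.05 CPM and the BMP2ADV148b libraries 20.6, 17.4 and 10.8 CPM. BMP2ADV590 differed from BMP2ADV148b by -2.12 (adjusted p = 4.56e-06), while its difference from BMP2ADV20a, -0.69, did not pass (adjusted p = 0.173). Over the list, 3 of 29 genes were lower than in BMP2ADV20a and 10 were lower than in BMP2ADV148b, which became 0 without BMP2ADV20a replicate 2 and 5 without BMP2ADV148b replicate 1. Macrophages are a source of such transcripts, and their part in these results was not tested. Of the 4 macrophage markers tested none was called, Adgre1 and Tyrobp were at 0, and the summed markers ranged from 6.48 to 6.94 CPM in BMP2ADV and from 5.55 to 7.30 CPM in BMP2ADV590.

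Interferon response genes, which mount the antiviral defence of the cell, fell in part. Of 45 tested, 22 were lower and 1 was higher (median -0.40), and the number lower was 9 and 16 without BMP2ADV replicates 2 and 3, 16, 22 and 13 without BMP2ADV590 replicates 1, 2 and 3. Rsad2 (ENSMUSG00000020641, chromosome 12, 26442746 to 26456452), viperin, an enzyme that makes a chain terminator of viral RNA, measured 48.7, 56.4 and 53.7 CPM in the BMP2ADV libraries and 22.1, 24.8 and 18.3 CPM in the BMP2ADV590 libraries (log2 fold change -1.28, SE 0.159, adjusted p = 1.56e-05). Irf1, the transcription factor gene at the head of many interferon genes, went from 65.8, 66 and 53.2 CPM to 29.3, 26.7 and 28.5 CPM (log2 fold change -1.13, SE 0.114, adjusted p = 1.3e-06). Both separated the groups without overlap. The antiviral GTPase genes Mx1 and Mx2 fell by 1.14 and 1.11 (SE 0.164 and 0.123), Parp14 by 0.76, Ifit3 by 0.52 and the chemokine gene Cxcl10 by 1.05. Reads that align to more than 1 place carry no gene here, so Mx1 and Mx2, and Ifit3 and its copy Ifit3b, are measured only by reads that tell them apart. Other calls hung on single libraries. Isg15 (-0.40) missed the threshold without BMP2ADV replicate 1 or 2 or BMP2ADV590 replicate 2 or 3 (adjusted p up to 0.142) and Ifit2 (-0.76) without BMP2ADV replicate 2 or 3 or BMP2ADV590 replicate 1 or 2 (up to 0.201). Ifi27 was the member called higher (0.35), and was not called without BMP2ADV replicate 2 or 3 or BMP2ADV590 replicate 1, 2 or 3 (up to 0.153). Of 16 MHC class I presentation genes 1, H2-T22, was called (-0.43), and it was not called without BMP2ADV replicate 2 or BMP2ADV590 replicate 2 (up to 0.0853).

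Against BMP2ADV148b more interferon genes were called. There 38 of the 45 genes were lower in BMP2ADV590 and 1 was higher, and 8 of 16 MHC class I genes were lower, while against BMP2ADV20a 2 interferon genes were lower and 1 higher. Leaving out single libraries gave 30 to 38 lower interferon genes against BMP2ADV148b, with 30 reached without BMP2ADV148b replicate 1, and 0 to 7 against BMP2ADV20a. Rsad2 stood at 117, 97.7 and 66.3 CPM in BMP2ADV148b and at 28, 34.7 and 35.1 CPM in BMP2ADV20a, and BMP2ADV590 minus these groups was -2.10 (adjusted p = 1.44e-08) and -0.58 (adjusted p = 0.0593).

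Promoters of 4 genes that fell are shown for the response elements they hold, 2 of the interferon list and 2 of the inflammatory list. Each line is the 150 bases before the start of the gene, 5' to 3' on the strand of the gene, from RefSeq on GRCm38.p6, with capitals for the interferon-stimulated response element, GAAA and GAAA with any 2 bases between (Rsad2 and Ifit3), or the NF-kB element, GGG and TTTCC with any 2 bases between (Tnfaip3 and Cxcl1), on either strand.
Rsad2: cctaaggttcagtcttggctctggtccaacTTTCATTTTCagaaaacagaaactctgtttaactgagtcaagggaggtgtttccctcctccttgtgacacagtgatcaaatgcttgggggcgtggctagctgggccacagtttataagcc (chr12:26456453-26456602, minus strand)
Ifit3: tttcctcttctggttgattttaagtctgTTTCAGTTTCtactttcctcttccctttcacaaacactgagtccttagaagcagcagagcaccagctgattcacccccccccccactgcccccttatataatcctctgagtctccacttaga (chr19:34583379-34583528, plus strand)
Tnfaip3: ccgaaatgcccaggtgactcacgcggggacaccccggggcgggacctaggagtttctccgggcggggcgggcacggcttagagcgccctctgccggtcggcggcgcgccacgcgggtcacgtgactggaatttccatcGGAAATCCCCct (chr10:19015411-19015560, minus strand)
Cxcl1: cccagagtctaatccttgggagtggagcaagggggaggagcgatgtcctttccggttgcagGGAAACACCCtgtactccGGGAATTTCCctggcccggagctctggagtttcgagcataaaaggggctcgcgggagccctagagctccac (chr5:90891095-90891244, plus strand)
Only genes with a promoter in the set searched were counted. These were 14 of the 22 interferon genes that fell and 18 of the 22 not called. Over the 250 bases before the start, the interferon-stimulated response element was found in 8 of these 14 and in 9 of these 18. Over all 27025 genes with a promoter in the set, 3.46% held it in a window of the same length. The falling and uncalled members counted held it at 57.1% and 50.0%. The NF-kB element was added after the data were seen. Of the 14 inflammatory genes that fell, 8 had a promoter in the set. The NF-kB element was in 5 of these 8 (Ccl20, Cxcl1, Csf1, Nfkbia and Tnfaip3). It was in 3 of the 13 uncalled members with such a promoter (Il6, Nfkb2 and Rel) and in 1.65% of all genes with a promoter. The SOX element ACAAAG was in 0 of 9 cartilage matrix genes that rose with a promoter in the set and in 18.6% of all genes with a promoter. A match of letters is a description of the window and says nothing of binding.

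**Figure D4:**
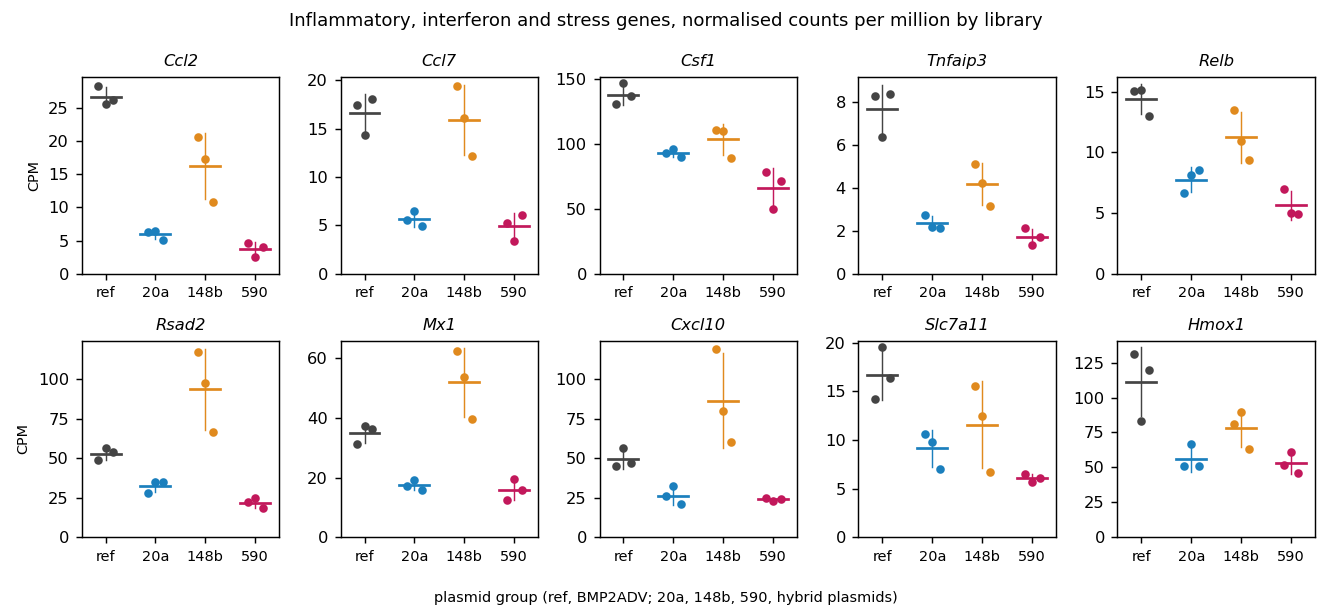
Normalised counts-per-million (y axis, linear from 0) of inflammatory, interferon and stress genes in the 12 libraries by plasmid group (x axis), with 1 point per library, bars at the mean and lines of 1 SD over 3 libraries. Ccl2 lies between 2.51 and 4.58 CPM in BMP2ADV590 and between 25.5 and 28.4 CPM in BMP2ADV, and BMP2ADV20a is also low for this gene.

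Some genes of cellular stress fell as well. Of 23 tested genes of the amino acid response, which the transcription factor ATF4 drives when amino acids run short or the endoplasmic reticulum is loaded, 9 were lower and none higher (median -0.30), with 7 to 10 on leaving out single libraries. Slc7a11, the cystine importer that feeds glutathione synthesis, measured 14.2, 19.5 and 16.4 CPM in the BMP2ADV libraries and 6.56, 5.73 and 6.10 CPM in the BMP2ADV590 libraries (log2 fold change -1.44, SE 0.239, adjusted p = 0.000347). The transcription factor gene Atf3 fell by 1.59, the pseudokinase gene Trib3 by 0.69 and Chac1, which degrades glutathione, by 0.73 (SE 0.274, 0.119 and 0.155). All 3 are classical targets of the pathway. Of 15 tested NRF2 genes, the antioxidant defence, 9 fell and 2 rose (median -0.41), with 6 lower without BMP2ADV replicate 2 or 3. Hmox1, heme oxygenase 1, fell by 1.07 and Gclm, a subunit of the enzyme that starts glutathione synthesis, by 0.55 (SE 0.150 and 0.119), whereas Nqo1, a quinone reductase, rose by 0.49 (SE 0.0770).

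Genes of endoplasmic reticulum chaperones and secretion gave calls in the other direction, with 6 of 27 tested higher and none lower (median 0.10). Creb3l2, already counted among the chondrocyte factors, was 1 of these. The others included Calr, the calcium-binding chaperone calreticulin (0.39, SE 0.0851), Dnajb11 (0.35) and the collagen-modifying P4hb (0.25). The number was 3 without BMP2ADV replicate 1 or BMP2ADV590 replicate 3, with Dnajb11 missing the threshold without BMP2ADV replicate 1 or BMP2ADV590 replicate 1 or 3 (up to 0.0711) and P4hb without BMP2ADV replicate 1 or 2 or BMP2ADV590 replicate 3 (up to 0.102). Hspa5, the main chaperone of the compartment, was not called, at a log2 fold change of 0.19 (unadjusted 95% interval 0.05 to 0.33). Of 24 tested p53 targets 7 were lower and none higher (median -0.27), among them Gdf15, a stress cytokine (-1.32, SE 0.286), Mdm2, the ligase that limits p53 (-0.59), the death receptor gene Fas (-0.61) and Bbc3, which encodes PUMA (-0.67). Cdkn1a, the cell cycle inhibitor p21, was not called (-0.13, adjusted p = 0.372). Of 21 immediate early genes 4 fell, with Fosl1, an AP-1 subunit, at 39.5, 39.2 and 47.9 CPM and 15.6, 13.6 and 20.8 CPM in BMP2ADV and BMP2ADV590 (log2 fold change -1.34, SE 0.159, adjusted p = 1.08e-05). Fos itself had a log2 fold change of 0.23 (adjusted p = 0.541). Of 17 clock genes 5 fell, including Noct, a clock-controlled phosphatase (-1.37, SE 0.250), and Bhlhe41 (-0.98, SE 0.197), and 3 did so when any reference library or BMP2ADV590 replicate 3 was left out.

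Some genes of cell division fell by small amounts. All 30 tested mitosis genes had a negative log2 fold change (median -0.28), of which 8 were called lower, and of 33 DNA replication genes 9 were called lower and none higher (median -0.26). Ccnd1, cyclin D1, which carries cells through G1, measured 552, 634 and 656 CPM in the BMP2ADV libraries and 380.5, 336 and 414 CPM in the BMP2ADV590 libraries (log2 fold change -0.70, SE 0.0879, adjusted p = 1.56e-05). Its BMP2ADV590 libraries were all below the reference and replicate 2 was the lowest. Cenpa, the histone of the centromere, fell by 0.48 and the kinase gene Aurka by 0.40, and in replication Gins2 fell by 0.59 and the polymerase gene Pola1 by 0.57 (SE 0.103, 0.0945, 0.118 and 0.125). Mki67, the proliferation marker, was not called, at -0.27 (95% interval -0.45 to -0.08, adjusted p = 0.0632). The CDK inhibitor genes Cdkn2a and Cdkn2b were lower too (-0.47 and -0.50), Cdkn2a not without BMP2ADV replicate 1 or BMP2ADV590 replicate 3 (up to 0.116) and Cdkn2b not without any of 7 libraries, among them each BMP2ADV library (up to 0.133). The mitosis count was 3, 2 and 4 without BMP2ADV replicate 2, BMP2ADV replicate 3 and BMP2ADV590 replicate 1, and the replication count was 4 without BMP2ADV replicate 2 or 3 or BMP2ADV590 replicate 3. Against BMP2ADV20a 1 mitosis gene and 3 replication genes were lower, and against BMP2ADV148b no mitosis gene and 5 replication genes. The replication counts became 0 without BMP2ADV20a replicate 1 and 1 without BMP2ADV148b replicate 1.

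Metabolic genes gave fewer calls. Scd1, the desaturase that makes monounsaturated fatty acids, rose by 0.76 (SE 0.0999), and Scd2 (0.49) and Fasn (0.42), also of fatty acid synthesis, rose too. The glucose transporter gene Slc2a1 rose by 0.51 while Hk2, the hexokinase of growing cells, fell by 0.66 (SE 0.0985 and 0.103), in a list of 24 hypoxia and glycolysis genes with 5 higher and 1 lower that had 1 higher without BMP2ADV replicate 2 and 2 without BMP2ADV replicate 3. Of 13 listed mitochondrially encoded transcripts 7 were tested, with 3 higher, and 0 called without BMP2ADV replicate 2 or 3 or BMP2ADV590 replicate 1. The 6 not tested included mt-Nd4l, mt-Co3 and mt-Atp8, which had 0 counts in all 6 libraries. Of 20 ribosomal protein genes none was called, and 1 was higher without BMP2ADV590 replicate 2.

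Keratins, the intermediate filament proteins of epithelia, made up 5 of the 12 largest rises among genes above 10 CPM without overlap. Krt8 and Krt18, keratins of simple epithelia, had 0 counts in the 6 libraries. Krt15 (ENSMUSG00000054146, chromosome 11, 100131758 to 100135928) measured 222, 207 and 164 CPM in the BMP2ADV libraries and 557, 623 and 495 CPM in the BMP2ADV590 libraries (log2 fold change 1.49, SE 0.141, adjusted p = 8.61e-07). Krt16 went from 14.5, 10.2 and 10.9 CPM to 35.9, 50.0 and 40.3 CPM (log2 fold change 1.82, SE 0.177, adjusted p = 1.1e-06) and Krt42 from 7.09, 3.89 and 4.91 CPM to 24, 22 and 19.9 CPM (log2 fold change 2.03, SE 0.240, adjusted p = 1.01e-05). In each of these genes the lowest BMP2ADV590 library was more than the highest of the other 9 libraries. Krt19 (1.83) and Krt13 (1.56) rose too, and all 5 lie among the type I keratins of chromosome 11. Krt14, a keratin gene of basal epidermis in the same cluster, was scarce and not called (0.27, adjusted p = 0.787). Krt15 exceeded BMP2ADV20a by 0.82 and BMP2ADV148b by 0.99 (adjusted p = 0.00257 and 9.42e-05), Krt16 by 1.00 and 1.33 (0.00249 and 3.39e-05) and Krt42 by 1.13 and 1.51 (0.00709 and 0.000294), and these calls held whichever single library was left out. Keratin genes are related in sequence, so reads that fit several of them carry no gene here. In the 6 libraries, 41.5% to 44.5% of records aligned to more than 1 place. The 0 counts of Krt8 and Krt18 therefore need not mean that these genes are silent. Of the epithelium markers, 3 of 5 tested rose, all keratins. Cdh1, the cadherin of epithelia, was not called and had a negative log2 fold change (-0.47). Epcam, Krt5 and Krt17 were too scarce to test. The summed level of the 5 tested markers was 185 to 245 CPM in BMP2ADV and 553 to 695 CPM in BMP2ADV590. Spink5, a serine protease inhibitor of the epidermis, rose by 1.45 (SE 0.176).

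**Figure D5:**
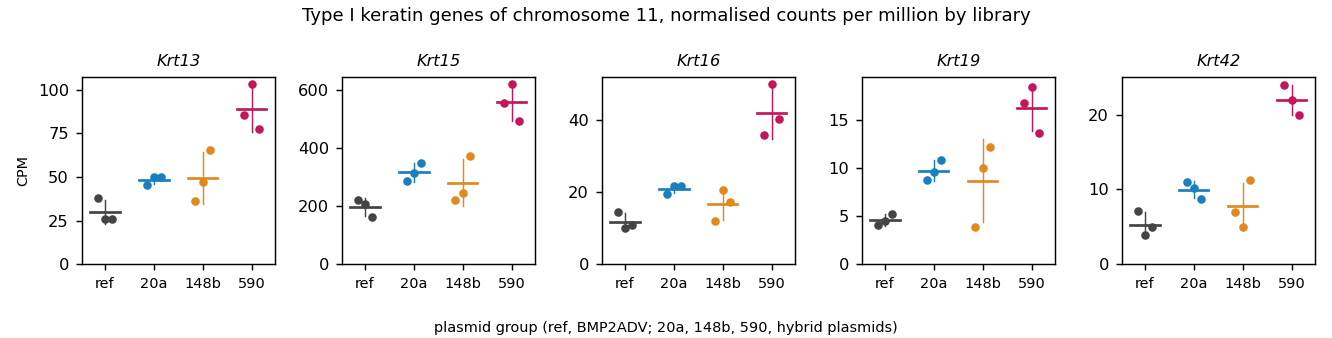
Normalised counts-per-million (y axis, linear from 0) of the 5 type I keratin genes called higher in the 12 libraries by plasmid group (x axis), with 1 point per library, bars at the mean and lines of 1 SD over 3 libraries. Krt15 lies between 495 and 623 CPM in BMP2ADV590, and in every panel the 3 BMP2ADV590 libraries are above all 9 others.

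The remaining large rises were Fbln7, a fibulin of cartilage and tooth matrix (1.61, SE 0.248), Greb1, known as an oestrogen-responsive gene (1.59, SE 0.238), Rapgef4, an exchange factor that cyclic AMP activates (1.56, SE 0.249), and Fabp7, a fatty acid-binding protein (1.49, SE 0.311). The remaining large falls were the serpin gene Serpinb9b (-1.53), the small GTPase gene Rnd1 (-1.43), Arhgap22, which encodes a GTPase-activating protein (-1.41), the linker histone gene Hist1h1e (-1.40) and Ankrd1, a YAP target gene (-1.28). Among the smallest p-values were also Gadd45g, a growth arrest gene (log2 fold change -0.91, SE 0.0966, adjusted p = 2.76e-06), and Snhg15, a host transcript of a small nucleolar RNA (log2 fold change -1.17, SE 0.116, adjusted p = 1.1e-06). Both fell, and their libraries did not overlap between groups.

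No tested member of the candidate target list for the miR-21 seed passed the test as lower, beside 3.89% of all tested genes. Of 23 tested members of the target list, 3 rose and none fell, with a median of 0.09, and the 3 are the genes whose sites are printed above. Without BMP2ADV590 replicate 1, 1 member was lower. Pdcd4, a translation inhibitor and textbook target of miR-21, measured 31.2, 27.6 and 26.7 CPM in the BMP2ADV libraries and 46.2, 41.4 and 38.3 CPM in the BMP2ADV590 libraries (log2 fold change 0.56, SE 0.124, adjusted p = 0.00537). Timp3 measured 4073, 3847 and 3888 CPM in the BMP2ADV libraries and 5972, 6095 and 5612 CPM in the BMP2ADV590 libraries (log2 fold change 0.58, SE 0.0713, adjusted p = 1.41e-05). Spry2, an inhibitor of growth factor signalling, had 53.2, 45.3 and 42.5 CPM and 43.1, 36.1 and 34.6 CPM in BMP2ADV and BMP2ADV590 (log2 fold change -0.31, 95% interval -0.56 to -0.06, adjusted p = 0.13). Of 11591 tested genes with an annotated 3' untranslated region, 999 hold ATAAGCT in the longest one. Of these, 48 were higher (4.80%) and 48 lower (4.80%), with a median of -0.01. Among the 10592 genes without the site, 513 were higher (4.84%) and 440 lower (4.15%), with a median of 0.00. The 2 groups differ in length, with median regions of 2856 and 1288 bases, and the part of length in these shares was not tested. The seed of miR-590-3p was not searched. A microRNA can also lower translation without lowering its messenger RNA, which counts of RNA do not measure.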

How the data were processed

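QuantSeq 3' mRNA FWD libraries, which read the 3' ends of polyadenylated RNA, were aligned with STAR 2.5.2a to GRCm38 and counted with HTSeq 0.6.0 by the authors, per the submitters' processing notes. The deposited values are raw counts per gene, 1 table per library. The strand setting, counting mode and annotation release are not stated in the sources used here, so reads of overlapping antisense genes cannot be told apart. Records without a gene (52.2% to 54.4%) were left out. GENCODE M21 gave symbols to 47224 of 47643 genes.

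A single edgeR 4.0.16 quasi-likelihood model (R 4.3.3) with 1 mean per group was fitted to 12 libraries, with TMM scaling, filterByExpr and Benjamini-Hochberg adjustment over 13229 genes. "Rose", "fell" and "called" mean an adjusted p under 0.05. Fold changes are BMP2ADV590 minus the other group on the log2 scale, SE is the fold change divided by the square root of F, and intervals are at 95%. Named were Bmp2, Eif4h, the 12 largest rises and falls and 10 smallest p among called genes of at least 10 CPM without overlap between libraries, up to 6 called members per list and other list members with their values. Members and lists were chosen with earlier results of these data known, and lists were described by counts and medians, without a test. The steps were tested on simulated data. Alternatives were other scalings and filters, DESeq2 1.42.0, limma-voom 3.58.1, a replicate block and leaving out each library. A sequence of miR-590 itself was not used here. Values of 1 named gene are not reported here.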

Additional observations from a re-analysis of the deposited data

Results flagged for a closer look

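Only genes of the naming rule and other called list members were screened for opposite changes in 2 hybrids, not all tested genes. To be flagged, a gene had to pass the threshold against BMP2ADV in both BMP2ADV590 and BMP2ADV148b, with opposite signs. It also had to pass in the direct contrast of these hybrids, so that contrast adds no separate support. In the direct contrast the reference libraries enter only through the scaling and the shared estimate of spread. The screen flagged 3 antiviral genes. Rsad2 changed by -1.28 in BMP2ADV590 and by 0.82 in BMP2ADV148b (adjusted p = 1.56e-05 and 0.0178), a difference of -2.10 (adjusted p = 1.44e-08). Cxcl10 changed by -1.05 and 0.80 (adjusted p = 0.000564 and 0.0465), a difference of -1.85 (adjusted p = 1.07e-06). Ifit3b changed by -0.40 and 0.52 (adjusted p = 0.00767 and 0.0178), a difference of -0.92 (adjusted p = 1.99e-06). The direct differences stayed past the threshold in each of the 12 fits with a library left out (highest adjusted p 9.37e-07, 2.58e-05 and 5.95e-05). The changes in BMP2ADV148b against BMP2ADV did not, and their adjusted p reached 0.139, 0.278 and 0.187, with the call lost in 5, 9 and 4 of the 12 fits. On the BMP2ADV590 side, the change of Ifit3b missed the threshold without BMP2ADV replicate 2 (adjusted p = 0.0582). Rsad2 had 22.1, 24.8 and 18.3 CPM in BMP2ADV590, 48.7, 56.4 and 53.7 CPM in BMP2ADV and 117, 97.7 and 66.3 CPM in BMP2ADV148b. Cxcl10 had 24.7, 23 and 24.1 CPM in BMP2ADV590, 45, 56.6 and 47 CPM in BMP2ADV and 119, 79.4 and 60.2 CPM in BMP2ADV148b. For Ifit3b these levels were 132, 115 and 118 CPM, 161, 176 and 146 CPM and 244, 203 and 241 CPM, so in all 3 genes BMP2ADV lay between the hybrids. Ifit3b is a near copy of Ifit3, and the share of its reads that aligned to both was not tested.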

How the results depend on the processing

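With single libraries left out, the number of genes called against BMP2ADV ranged from 565 to 1115, that against BMP2ADV20a from 64 to 489 and that against BMP2ADV148b from 241 to 656. Without the filter on low counts 519 genes were called against BMP2ADV20a. Other scalings, filters, DESeq2 and limma-voom kept the count against BMP2ADV within 1.5 times of 1093. Over the 162 genes of the naming rule, the direction held under each alternative, and of the 161 called 111 stayed past the threshold in all 12 fits without a library. Calls were lost by 13 of them without BMP2ADV590 replicate 2, 35 without BMP2ADV replicate 2, 34 without BMP2ADV replicate 3 and 20 when the fit held only the 6 libraries. Replicate numbers did not pair the libraries. Over all pairs of groups, same-numbered libraries correlated at -0.113 to 0.0715 in their deviations from the group means and others at -0.0905 to 0.115. With a replicate block, 905 genes were called against BMP2ADV, of which 480 were higher, and 172 were called against BMP2ADV20a. Depth limits the scarce genes, Bmp2, Nog and Ccl20 among them. Why the count against BMP2ADV20a rose without BMP2ADV590 replicate 2 and fell with the block was not tested.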

Other observations

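Small nucleolar RNAs and their host transcripts, a family picked after the values were seen and so not tested, lay mostly below the reference in BMP2ADV590. Of 41 small nucleolar RNA genes tested, 5 were called lower and none higher (median -0.55). Of 11 Snhg host genes 3 were called lower and none higher (median -0.15). The libraries read the 3' ends of polyadenylated RNA, and whether these counts measure mature small nucleolar RNAs was not tested. Snora68 had 22.8, 21.7 and 25.7 CPM in BMP2ADV and 8.53, 15.5 and 13.8 CPM in BMP2ADV590 (log2 fold change -0.90, adjusted p = 0.0069), and the host gene Snhg12 changed by -0.41 (adjusted p = 0.0045). Histone genes of the Hist clusters, whose messenger RNAs mostly lack a poly(A) tail, had 1 lower of 31 tested, Hist1h1e, and a median of -0.47. Hist1h1e had 27, 32.2 and 38.3 CPM in BMP2ADV and 10.3, 16.6 and 9.90 CPM in BMP2ADV590, with no overlap.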
